A study of Homo sapiens with 22 samples.

Results

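Translational efficiency after 6 h of tunicamycin was taken, gene by gene, as the change in ribosome footprints minus the change in RNA, each of tunicamycin at 6 h against untreated cells. Members were protein-coding genes well counted in both assays, with a mean of at least 5 CPM (counts scaled to a common library size) over the 6 RNA-Seq libraries and over the 6 Ribo-Seq libraries of both groups. Of the 13320 protein-coding genes among 18500 tested genes, 10160 met this rule, 2710 lay below the level in RNA-Seq and 2866 in Ribo-Seq. Just inside it, NPEPL1 averaged 5.00 CPM in RNA-Seq and ITIH5 averaged 5.01 CPM in Ribo-Seq, with efficiency changes of 0.41 and -0.65 on the log2 scale. Just outside, FBXO10 averaged 4.99 CPM in Ribo-Seq and TMEM254 averaged 4.98 CPM in RNA-Seq, with changes of -0.59 and -0.71.

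The cells were LN308, an established glial line from an astrocytoma that lacks p53. The treated group received tunicamycin at 2.5 µg/ml for 6 h, with 3 RNA-Seq libraries of total RNA and 3 Ribo-Seq libraries of ribosome-protected fragments, numbered 1 to 3. The untreated group, at 0 h, had the same numbers of libraries. The labels call the 0 h cells untreated, while DMSO is given as the control in the protocol, and the comparison has no 6 h vehicle libraries. Whether the replicates of a group were separate cultures is not stated, so the spread behind the p-values may be technical and covers these samples alone.

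Tunicamycin blocks the first step of N-linked glycosylation, and unglycosylated proteins misfold in the lumen of the endoplasmic reticulum (ER). The unfolded protein response (UPR) then acts through the sensors PERK (EIF2AK3), IRE1 (ERN1) and ATF6: PERK phosphorylates eIF2 and lowers initiation in general, while mRNAs with regulatory upstream open reading frames (uORFs), such as those of ATF4 and DDIT3, are known to be translated under these conditions. IRE1 splices XBP1 mRNA, and XBP1, ATF6 and ATF4 raise transcription of chaperones, degradation factors and amino acid genes. Efficiency measured from counts is relative to the other mRNAs, so a change in translation shared by all mRNAs cannot be seen in these data.

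Promoter sequences show which control elements some members carry. The ER stress response element, the site through which ATF6 and XBP1 act on transcription, was searched as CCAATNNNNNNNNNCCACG on both strands in RefSeq windows of GRCh38.p14 that run from 250 bases before to 50 bases after each gene's start. It was found in 22 of 27305 windows (0.0806%), in 14 of the 8516 members that had a window (0.164%), and in 6 of 28 ER chaperones and folding enzymes with a window (21.4%). The sites of the HSPA5, HSP90B1, XBP1, CALR and FICD windows are shown because these genes belong to the RNA response described here; capitals mark the fixed letters.
HSPA5, chr9:125241391-125241409, minus strand: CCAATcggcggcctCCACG
HSP90B1, first site, chr12:103930216-103930234, plus strand: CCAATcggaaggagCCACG
HSP90B1, second site, chr12:103930321-103930339, minus strand: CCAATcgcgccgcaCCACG
XBP1, chr22:28800603-28800621, minus strand: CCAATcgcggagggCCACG
CALR, chr19:12938384-12938402, minus strand: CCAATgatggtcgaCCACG
FICD, chr12:108515123-108515141, plus strand: CCAATgggagtggcCCACG
A match is a description of the letters and not a shown binding site. ALG12 and CRELD2 share a site, and so do EIF2A and SERP1, so the 14 members do not all carry separate sites. The 14 members with a match had a median RNA change of 1.51, a median footprint change of 1.28 and a median efficiency change of -0.24 (log2), or -0.12 relative to the median of all members. Their median efficiency level (log2 of Ribo CPM over RNA CPM in same-numbered libraries), relative to all members, went the other way in each replicate number, at -0.18, -0.04 and -0.00446 in replicates 1 to 3 at 6 h and -0.21, -0.11 and -0.29 in untreated cells.

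The 5′ terminal oligopyrimidine (TOP) tract, a C at the first transcribed base followed by pyrimidines, is the element through which mTOR is known to control translation of ribosomal protein mRNAs. A C followed by at least 4 pyrimidines at the annotated start was found in 1104 of 27305 windows (4.04%) and in 479 of 8516 members (5.62%). It was found in 42 of 63 ribosomal protein genes (66.7%) and in 11 of 12 other translation factors of the TOP class (91.7%). The first 20 bases from the start of 6 such genes are shown, with the tract in capitals, because they mark the class that is compared with the stress response mRNAs.
RPLP0, chr12:120201092-120201111, minus strand: CCTTCTCTCgccaggcgtcc
RPS6, chr9:19380217-19380236, minus strand: CTCTTTTCCgtggcgcctcg
RPL13A, chr19:49487608-49487627, plus strand: CTTTTCCaagcggctgccga
EEF2, chr19:3985444-3985463, minus strand: CTCTTCCgccgtcgtcgccg
EEF1A1, chr6:73521013-73521032, minus strand: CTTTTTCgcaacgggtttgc
TPT1, chr13:45341164-45341183, minus strand: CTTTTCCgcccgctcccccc
The 479 members with a tract had a median efficiency change of -0.10, against -0.12 over all 10160 members.

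RNA-Seq libraries held 114935867 to 166586145 counts at 6 h and 101371822 to 138227034 in untreated cells, and Ribo-Seq libraries held 6920427 to 10127909 at 6 h and 8477747 to 29183769 in untreated cells. The Ribo-Seq library was the shallower of every same-numbered pair. Untreated replicate 1 stood apart in both assays: 53489 entries had reads in its RNA-Seq library, against 38559 to 40331 in the other 5, and the first principal component (52.3% of the variance in RNA-Seq, 51.7% in Ribo-Seq) set it apart from the rest. At 6 h, replicate 1 lay apart from the other treated libraries on the second component (54.2 against 0.789 and 4.92 in RNA-Seq, 47.4 against 1.36 and 7.17 in Ribo-Seq), which took 35.3% and 29.3% of the variance. For many results values are also given with both libraries of untreated replicate 1 left out, or with replicate 1 of all groups left out. All groups here means the compared groups, and the libraries of other treatments and times stayed in these fits. Of 12 glial markers, 7 reached a mean of 5 CPM at 6 h and 8 in untreated cells. None of 10 blood markers did in either assay, and 2 or 3 of 10 epithelial markers did in each group and assay. The glial markers GFAP, SOX9 and ALDH1L1 stayed under that level, and AQP4 was not tested. In untreated RNA, SLC1A3 reached it through replicate 1 alone, at 41.1 CPM against 2.76 and 3.22. In these bulk samples, fewer cells of a type and less RNA per cell cannot be told apart.

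Footprints followed RNA. At an adjusted p under 0.05 (edgeR quasi-likelihood test), RNA rose for 376 of the 10160 members (3.70%) and fell for 72 (0.709%); among all 18500 tested genes 2.24% rose and 0.454% fell. Footprints rose for 293 members (2.88%) and fell for 260 (2.56%); among all tested genes 1.98% rose and 1.70% fell. Of the 376 members whose RNA rose, 257 (68.4%) also had called footprint gains and 375 had a footprint change of the same sign; their median change was 1.41 in RNA and 1.16 in footprints. Of the 293 members with called footprint gains, 257 (87.7%) had called RNA gains. Among the falls the shares were 62 of 72 (86.1%) and 62 of 260 (23.8%). The 260 members whose footprints fell had a median footprint change of -1.23 and a median RNA change of -0.83. RNA enters both the choice of the 376 and the efficiency, so their median efficiency change of -0.22, with 58 higher and 318 lower, is a description with no test.

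**Figure D1:**
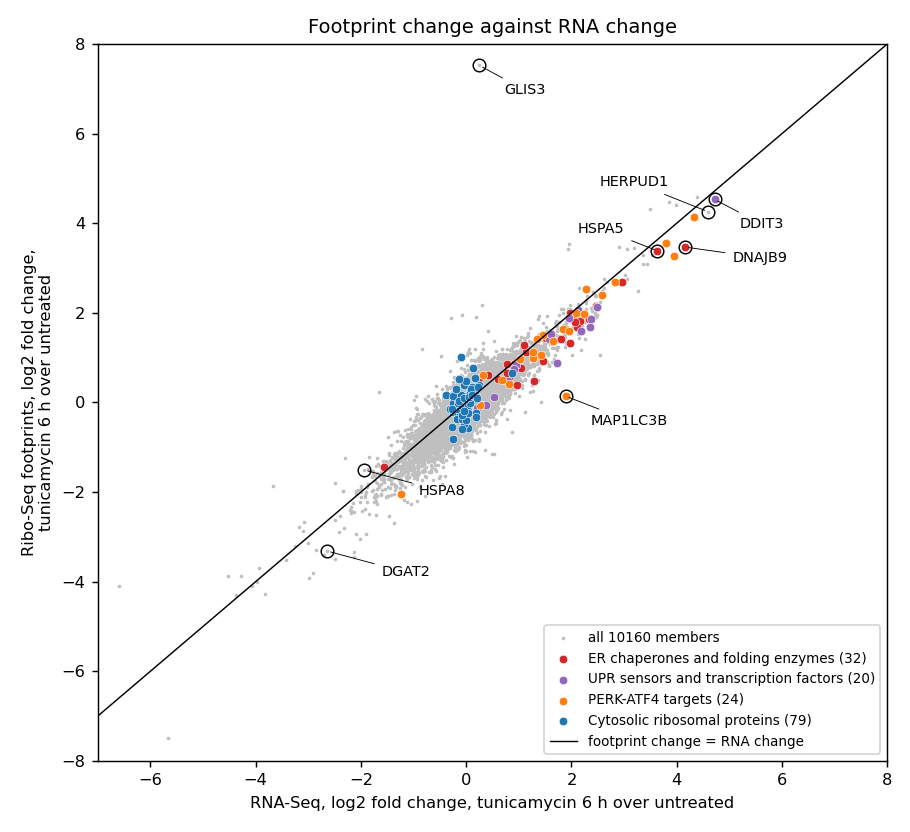
Log2 fold change of Ribo-Seq footprints (y axis) against that of RNA (x axis), tunicamycin 6 h over untreated, for 10160 members in grey, with selected gene lists coloured and the line of equal change. Stress-response genes lie near the line at the upper right, and GLIS3 lies far above it on the value of 1 Ribo-Seq library.

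No member passed the test for efficiency in either direction (edgeR), and among all 18500 tested genes 0 were called higher (0.0%) and 0 lower (0.0%). The smallest adjusted p over the members was 0.991. At an unadjusted p under 0.05, 7 members were higher and 62 lower, 69 in all, where 508 would be 5% of the members; over all tested genes the shares were 2.70% higher and 1.12% lower. DESeq2 called 0 members and gave 71 at an unadjusted p under 0.05, and limma voom called 0 and gave 248. DESeq2 called 13 genes higher and 6 lower among all 18500, none of them a member.

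The size of the changes was small beside their error. The efficiency changes of the members had a median of -0.12, a 5th percentile of -0.56 and a 95th percentile of 0.33 (log2), with a median standard error of 0.42; over all 18500 tested genes the median was -0.08. By comparison, footprint changes ran from -1.09 to 0.88 and RNA changes from -0.87 to 0.95 between the same percentiles. An efficiency change above 0.5 was estimated for 172 members and below -0.5 for 743, above 1 for 26 and below -1 for 47. After the median of all members was subtracted, the counts were 357 and 347 past 0.5, and 27 and 26 past 1. The 95% interval lay within ±1 for 3693 members (36.3%), which bounds their change to less than 2-fold either way. It had an upper end under 1 for 6969 members (68.6%), including 335 of the 376 whose RNA rose (89.1%), and a lower end over -1 for 4877 (48.0%). Errors and intervals come from the fit without a replicate block, so variation shared by same-numbered libraries of both assays stays in them. At an unadjusted p under 0.05 (edgeR), 69 members there became 241 with a block for each treatment and number, shared by the assays. They became 440 with that block and the replicate block within each assay. Both blocked fits also left out the thapsigargin libraries and held 14613 genes, so more than the block differed.

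The overall direction depended on scaling and on replicate 1. As fitted, 3285 members (32.3%) were higher and 6875 (67.7%) lower in efficiency at 6 h. The share of higher members was 40.6% with DESeq2's size factors, 49.5% with scaling over the members alone and 51.7% with library size alone, where the median moved to 0.01. It was 44.4% without untreated replicate 1, and 51.7%, with a median of 0.01, without replicate 1 of all groups. List medians are therefore given as fitted, and for most lists also relative to the median of all members, called the relative change. Counts of members higher or lower in a list are taken against 0 unless the median of all members is named. When same-numbered libraries were compared, the efficiency levels at 6 h lay above all untreated levels for 240 members (2.36%) and below all of them for 1105 (10.9%); the shares among all tested genes were 3.54% and 8.04%. The median efficiency level, log2 of Ribo CPM over RNA CPM, was -0.21, -0.14 and -0.12 in replicates 1, 2 and 3 at 6 h, and 0.09, -0.11 and -0.07 in untreated cells.

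**Figure D2:**
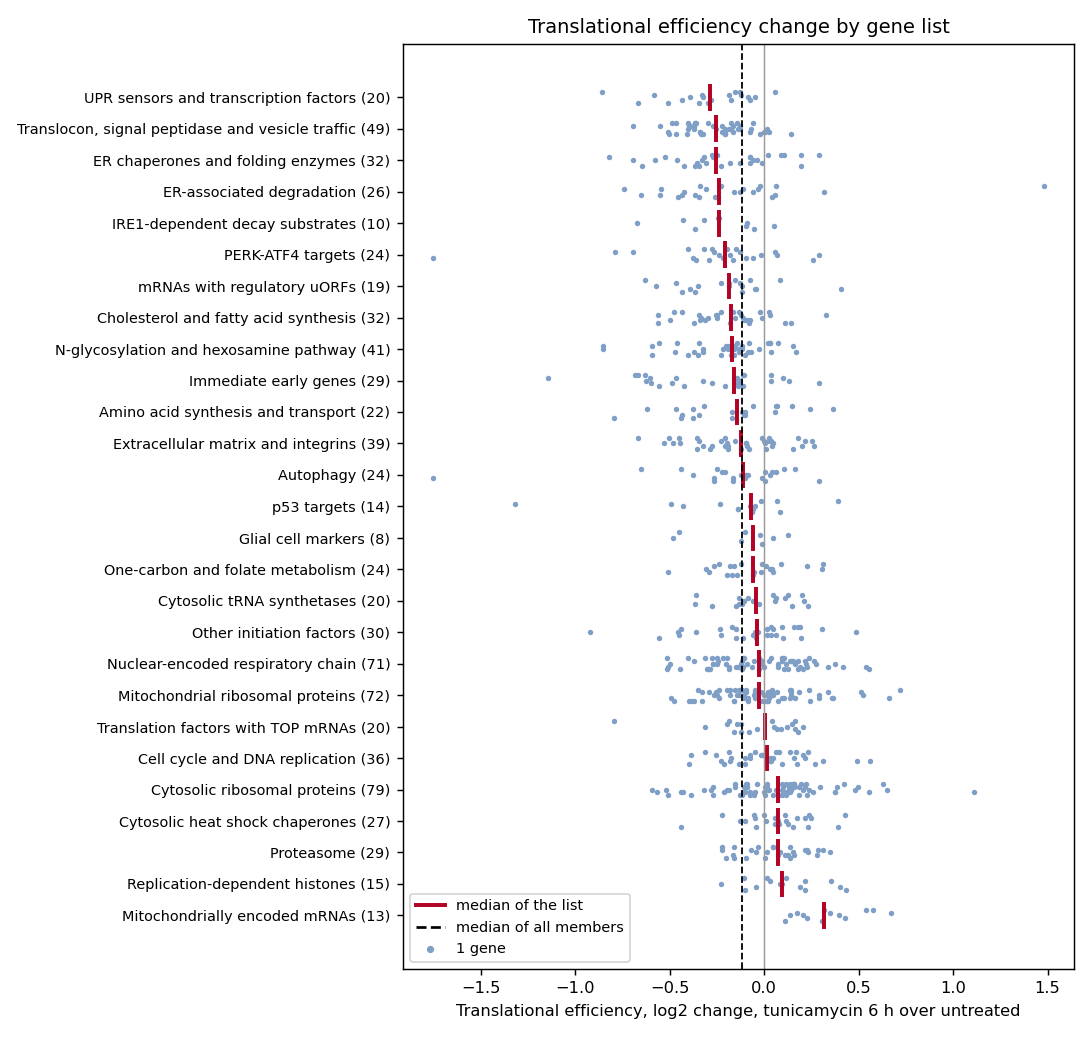
Log2 change in translational efficiency, tunicamycin 6 h over untreated (x axis), of each member (points) of 27 gene lists, with list medians in red and the median of all members dashed. List medians run from -0.29 for UPR sensors and transcription factors to 0.32 for mitochondrially encoded mRNAs, and single genes spread more widely than the medians.

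Sensors and transcription factors of the UPR, 20 members, had a larger median gain in RNA than in footprints. The median change was 1.26 in RNA and 0.85 in footprints, and RNA rose for 9 and footprints for 6. Of the 20 efficiency estimates, 19 were negative and 16 lay below the median of all members. Their median was -0.29, a relative change of -0.17. The 4 sensors had a median of -0.45, the 10 transcription factors -0.16 and the 6 controllers of eIF2 phosphorylation -0.31. The list's efficiency level, relative to all members, was 0.22, 0.26 and 0.08 in replicates 1 to 3 at 6 h and 0.38, 0.56 and 0.32 in untreated cells. It was lower at 6 h in each number, and the groups did not overlap. The relative change was -0.10 without untreated replicate 1 and -0.18 with both replicate blocks.

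EIF2AK3, the PERK kinase, had 70.2, 92.1 and 89.5 Ribo CPM at 6 h and 34.9, 22.9 and 25.1 in untreated cells. Its RNA was 126, 105 and 122 CPM at 6 h and 25.7, 24.8 and 27.2 in untreated cells. Both gains passed the test, 1.6 ± 0.23 in footprints (adjusted p = 0.000649) and 2.18 in RNA (adjusted p = 2.27e-05), while the efficiency change was -0.58 (95% interval -1.25 to 0.08), or -0.35 without untreated replicate 1 and -0.14 without replicate 1 of all groups. XBP1, the transcription factor made after splicing by IRE1, had 440, 476 and 517 Ribo CPM at 6 h and 132, 141 and 123 in untreated cells. Its RNA was 557, 438 and 492 CPM at 6 h and 85.5, 97.2 and 106 in untreated cells. Footprints rose by 1.86 and RNA by 2.37 with no overlap in either assay, and the efficiency change was -0.51 (-1.18 to 0.16), or -0.23 without replicate 1 of all groups. Gene counts hold no position, so spliced and unspliced XBP1 cannot be told apart.

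ER chaperones and folding enzymes, 32 members, rose in RNA for 16 and in footprints for 17. Median changes were 1.22 in RNA and 1.03 in footprints. Efficiency was lower for 26 and higher for 6, and 20 lay below the median of all members. The median was -0.26, a relative change of -0.14. The 6 co-chaperones had a median of -0.47, the 7 chaperones -0.23 and the 10 disulfide isomerases -0.19. The list's relative change was -0.14 also without untreated replicate 1, -0.07 without replicate 1 of all groups and -0.01 without replicate 3 of all groups, and its levels overlapped between groups, at -0.06, 0.04 and 0.12 at 6 h and 0.06, 0.02 and 0.20 in untreated cells.

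HSPA5, the main ER chaperone (BiP), had 4804, 6043 and 7087 Ribo CPM at 6 h and 478, 565 and 676 in untreated cells. Its RNA was 6498, 12570 and 15200 CPM at 6 h and 616, 1000 and 1149 in untreated cells. All 3 treated libraries lay above all untreated ones in both assays; footprints rose by 3.38 (adjusted p = 0.000401) and RNA by 3.63 (adjusted p = 0.000161), and the efficiency change was -0.25 (-1.50 to 1.00). HSP90B1, the ER member of the HSP90 family, rose by 1.44 in footprints and 1.51 in RNA, with an efficiency change of -0.07 (-0.91 to 0.76), which was 0.03 without untreated replicate 1. DNAJB9, a co-chaperone of HSPA5, had 212, 261 and 285 Ribo CPM at 6 h and 36.8, 19.5 and 11.8 in untreated cells. It rose by 3.47 in footprints and by 4.16 in RNA, with an efficiency change of -0.69 (-1.68 to 0.29), or -0.34 without untreated replicate 1 and -0.18 without replicate 1 of all groups.

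Among the folding enzymes of this list, TXNDC11 and DNAJC10 had the smallest unadjusted p. TXNDC11, a thioredoxin-domain protein, had 70.4, 91.7 and 87.3 Ribo CPM at 6 h and 28.7, 37.1 and 33.8 in untreated cells, and both of its gains passed the test. DNAJC10, a disulfide reductase that works with HSPA5, had 216, 239 and 281 Ribo CPM at 6 h and 228, 138 and 163 in untreated cells. Its RNA was 470, 367 and 434 CPM at 6 h and 178, 162 and 178 in untreated cells. The groups overlapped in footprints because untreated replicate 1 was high, and did not overlap in RNA, which rose by 1.30 (adjusted p = 0.00501). Efficiency changed by -0.64 for TXNDC11 and -0.82 for DNAJC10, and -0.59 for each without untreated replicate 1, with intervals of -1.18 to -0.11 and -1.53 to -0.11 that left out 0, and adjusted p = 1 for each (edgeR).

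**Figure D3:**
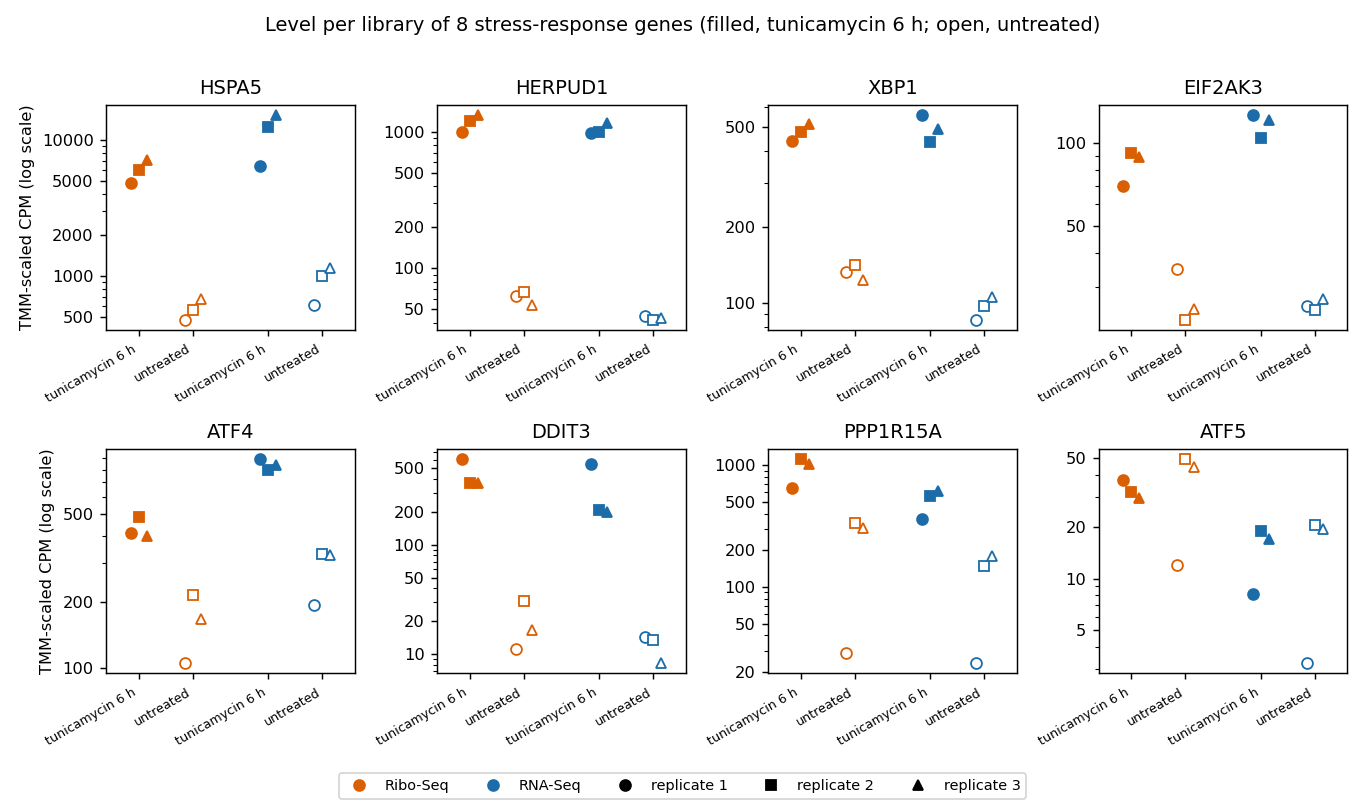
TMM-scaled CPM on a log scale in each library for 8 stress-response genes, with Ribo-Seq in orange and RNA-Seq in blue, filled symbols for tunicamycin 6 h, open symbols for untreated cells and symbol shapes for replicates. Treated levels lie above untreated ones in both assays for every gene plotted except ATF5, and untreated replicate 1 is the lowest library for PPP1R15A and ATF5 in both assays.

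ER-associated degradation moves misfolded proteins to the cytosol for destruction. Of its 26 members, RNA rose for 11 and footprints for 8. Efficiency was lower for 21 and below the median of all members for 17, with a median of -0.24 and a relative change of -0.12. That relative change ran from -0.21 to 0.05 when a library or a replicate number was left out, and by replicate number the list's level changed by -0.33, 0.16 and -0.12. The 16 members of the membrane complex had a median of -0.25 and the 4 mannosidases -0.45, while the 6 cytosolic extraction factors had 0.05, with 4 of 6 higher. HERPUD1, a scaffold of the membrane complex, had 1001, 1196 and 1319 Ribo CPM at 6 h and 63.1, 66.9 and 53.9 in untreated cells. Its RNA was 980, 999 and 1159 CPM at 6 h and 44.7, 42.1 and 42.9 in untreated cells. The groups were far apart in both assays, footprints rose by 4.26 and RNA by 4.60, and the efficiency change was -0.34 (-1.0 to 0.33).

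Members of the degradation list with the smallest unadjusted p differed in direction. EDEM1, which hands trimmed glycoproteins to the pathway, had 314, 405 and 377 Ribo CPM at 6 h and 248, 184 and 182 in untreated cells. Its RNA was 473, 460 and 528 CPM at 6 h and 136, 172 and 181 in untreated cells. Both rose, by 0.84 in footprints and 1.58 in RNA, and the efficiency change was -0.74 (-1.34 to -0.14), or -0.44 without untreated replicate 1 and -0.33 without replicate 1 of all groups. DERL3, a derlin of the membrane complex, had 9.49, 9.47 and 8.44 Ribo CPM at 6 h and 0.38, 1.04 and 1.30 in untreated cells. Its RNA was 12.2, 11.5 and 11.9 CPM at 6 h and 3.81, 2.31 and 3.15 in untreated cells. DERL3 rose by 3.42 in footprints (adjusted p = 0.000148) and 1.94 in RNA (adjusted p = 0.00553), and its efficiency estimate was 1.48 (0.35 to 2.61) in all libraries and 0.87 without untreated replicate 1. Its mean of untreated footprints was near 1 CPM, and its efficiency did not pass the test (adjusted p = 1).

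The translocon, signal peptidase and vesicle traffic list, which carries proteins into and out of the ER, had 49 members. RNA rose for 23 and footprints for 12, with medians of 0.89 and 0.68. Efficiency was lower for 45 and below the median of all members for 40, with a median of -0.26 and a relative change of -0.14. That relative change was -0.01 without untreated replicate 1. Levels relative to all members were -0.27, -0.15 and -0.22 at 6 h and 0.17, -0.22 and -0.19 in untreated cells, so that only untreated replicate 1 lay apart. SEC11C, a signal peptidase subunit, rose by 1.44 in footprints and 2.13 in RNA, with an efficiency change of -0.69 (-1.56 to 0.17). SSR2, a translocon-associated subunit, had an efficiency change of -0.49 (-1.13 to 0.16).

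The N-glycosylation and hexosamine pathway list covers N-glycosylation, which tunicamycin blocks at its first step, and the hexosamine genes. Of 41 members, RNA rose for 6 and footprints for 5, and the median changes were 0.41 in RNA, 0.19 in footprints and -0.17 in efficiency, a relative change of -0.05. The 5 hexosamine genes, which make the sugar donor, had medians of 1.97 in RNA and 1.87 in footprints, with RNA and footprints rising for 3. The 12 oligosaccharyltransferase members had a median efficiency change of -0.21, with 11 lower and 9 below the median of all members. OSTC, a subunit of that enzyme, had 54.4, 54.5 and 72.1 Ribo CPM at 6 h and 50.8, 31.6 and 45.0 in untreated cells. Its RNA was 183, 144 and 190 CPM at 6 h and 59.6, 64.6 and 77.7 in untreated cells. OSTC RNA rose by 1.36 (adjusted p = 0.00395), its footprint change of 0.51 did not pass the test, and the efficiency change was -0.85 (-1.58 to -0.12), or -0.45 without replicate 1 of all groups. UGGT1, the folding sensor that reglucosylates glycoproteins, had an efficiency change of -0.59 (-1.27 to 0.08).

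mRNAs with regulatory uORFs, 19 members, are the class that textbook accounts of eIF2 phosphorylation place among those translated during stress. Their medians were 0.96 in RNA, 0.97 in footprints and -0.19 in efficiency, with 2 estimates higher and 17 lower and a relative change of -0.07. Against the median of all members, 6 estimates were higher and 13 lower. RNA rose for 6 and footprints for 5, and footprints fell for 1, BACE1, named after its values were seen. The list's relative change was -0.12 without untreated replicate 1, and it lay between -0.26 and 0.02 when any 1 of the 12 libraries or any replicate number was left out. Its levels relative to all members overlapped, at -0.12, 0.21 and 0.08 at 6 h and 0.11, 0.11 and 0.19 in untreated cells. The 95% interval had an upper end under 1 for 12 of the 19 members and lay within ±1 for 6, so a gain of 2-fold was outside the interval for 12 and inside it for 7.

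ATF4, the transcription factor of the integrated stress response, had 411, 488 and 398 Ribo CPM at 6 h and 105, 214 and 167 in untreated cells. Its RNA was 896, 795 and 838 CPM at 6 h and 192, 330 and 328 in untreated cells. Both rose, by 1.42 in footprints and 1.57 in RNA, and the efficiency change was -0.15 (-0.93 to 0.62). DDIT3 (CHOP), a proapoptotic transcription factor, had 609, 365 and 366 Ribo CPM at 6 h and 11.3, 30.5 and 16.5 in untreated cells. Its RNA was 541, 210 and 201 CPM at 6 h and 14.3, 13.5 and 8.31 in untreated cells. DDIT3 rose by 4.53 in footprints and 4.72 in RNA, with an efficiency change of -0.19 (-1.60 to 1.22). That of DDIT3 was -0.58 without untreated replicate 1 and 0.09 with the replicate block shared by the assays. In both genes the treated libraries lay above all untreated ones in each assay, while the efficiency levels of the groups overlapped.

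PPP1R15A (GADD34), which recruits the phosphatase that reverses eIF2 phosphorylation, had 655, 1126 and 1028 Ribo CPM at 6 h and 28.4, 335 and 305 in untreated cells. Its RNA was 364, 556 and 611 CPM at 6 h and 23.7, 150 and 178 in untreated cells. Replicate 1 was far below the other untreated libraries in both assays; neither change passed the test, and the efficiency change was -0.05 with an interval of -2.41 to 2.31. ATF5, a relative of ATF4, had 37.2, 31.7 and 29.6 Ribo CPM at 6 h and 11.9, 49.6 and 44.8 in untreated cells, again with replicate 1 lowest. Its efficiency change was -0.13 (-1.88 to 1.62). For both genes the intervals include changes of more than 2-fold in either direction.

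Other members of the uORF list had narrower intervals. IFRD1, a transcriptional coregulator, rose by 1.03 in footprints and 1.21 in RNA, with an efficiency change of -0.19 (-0.77 to 0.40). PPP1R15B, the constitutive partner of that phosphatase, had an efficiency change of -0.44 (-1.20 to 0.33). IBTK, an inhibitor of Bruton tyrosine kinase, had 189, 207 and 213 Ribo CPM at 6 h and 153, 74.9 and 66.4 in untreated cells. Its RNA rose by 1.68 (adjusted p = 0.00699), and its efficiency change of -0.63 (-1.59 to 0.32) was -0.23 without untreated replicate 1 and 0.04 without replicate 1 of all groups. PNRC2, a factor of mRNA decay, had an interval that left out 0, with a change of -0.57 (-1.09 to -0.05, adjusted p = 1).

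**Figure D4:**
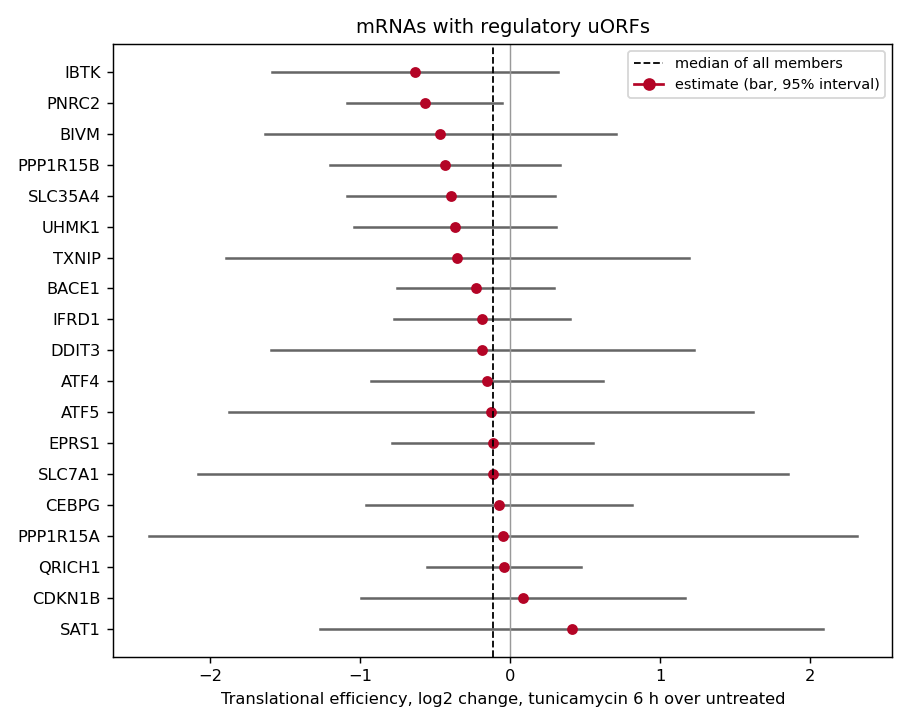
Log2 change in translational efficiency, tunicamycin 6 h over untreated (x axis), of the 19 members with regulatory uORFs, as estimates with 95% intervals and the median of all members dashed. Of the estimates 17 are below 0 and 13 below the dashed median. The intervals of PPP1R15A and ATF5 span more than 2-fold in both directions.

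Targets of the PERK-ATF4 branch, 24 members, had median changes of 1.55 in RNA and 1.4 in footprints; RNA rose for 12 and footprints for 11. Efficiency was lower for 20 and below the median of all members for 17. The median was -0.21 and the relative change -0.09, which was -0.17 without untreated replicate 1. The list's median level per library pair went the other way in each number: relative to all members it was 0.11, 0.41 and 0.30 at 6 h and -0.02, 0.34 and 0.27 in untreated cells. TRIB3, a pseudokinase that limits ATF4 activity, had 1064, 1694 and 1461 Ribo CPM at 6 h and 47.6, 108 and 85.3 in untreated cells. It rose by 4.13 in footprints and 4.33 in RNA, with no overlap of the groups in footprints and an efficiency change of -0.20 (-1.25 to 0.86). CHAC1, an enzyme that degrades glutathione, had 124, 125 and 119 Ribo CPM at 6 h and 1.32, 24.8 and 13.2 in untreated cells. It rose by 3.26 in footprints and 3.95 in RNA, with an efficiency change of -0.69 (-2.75 to 1.37).

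MAP1LC3B, the autophagosome protein LC3B, stood apart in this list and in the autophagy list. It had 205, 222 and 250 Ribo CPM at 6 h and 330, 98.3 and 186 in untreated cells. Its RNA was 164, 283 and 341 CPM at 6 h and 41.5, 84.6 and 86.9 in untreated cells. The groups overlapped in footprints and not in RNA, which rose by 1.89 (adjusted p = 0.0448), while the footprint change of 0.14 did not pass the test. The efficiency estimate was -1.75 (-3.15 to -0.35) in all libraries and -0.93 without untreated replicate 1. The autophagy list of 24 had a relative change of 0.00.

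Genes of amino acid supply had median gains in both assays. Amino acid synthesis and transport, 22 members, had medians of 1.53 in RNA and 1.39 in footprints, with RNA rising for 13, footprints for 12 and a median efficiency change of -0.14, a relative change of -0.03. ASNS, asparagine synthetase, had 279, 215 and 239 Ribo CPM at 6 h and 26.2, 43.2 and 62.8 in untreated cells. It rose by 2.47 in footprints and 2.41 in RNA, with an efficiency change of 0.06 (-0.99 to 1.12). PSAT1, an enzyme of serine synthesis, rose by 2.00 in footprints and 1.95 in RNA, with an efficiency change of 0.06 (-0.84 to 0.95). Cytosolic tRNA synthetases, 20 members, rose in RNA for 11 and in footprints for 11, with medians of 1.14 in RNA and 0.90 in footprints. Their median efficiency change was -0.04, a relative change of 0.08. IARS1, the isoleucine enzyme, rose by 1.19 in RNA, and its footprint change of 0.83 had an adjusted p of 0.0609.

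One-carbon and folate metabolism, 24 members, split by compartment in RNA. The 9 mitochondrial members had a median of 0.67 in RNA and 0.46 in footprints, and the 15 cytosolic members had -0.07 and -0.04; RNA and footprints rose for 3, all mitochondrial. MTHFD2, the mitochondrial dehydrogenase of the pathway, rose by 2.09 in footprints and 2.27 in RNA, with an efficiency change of -0.18 (-1.12 to 0.76). Median efficiency changes were -0.17 for the mitochondrial and -0.01 for the cytosolic members.

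Ribosomal proteins showed little movement in either assay. Cytosolic ribosomal proteins, 79 members, had medians of -0.03 in RNA, 0.05 in footprints and 0.07 in efficiency, with 49 estimates higher and 30 lower and no call in RNA or footprints. The relative change of 0.19 was 0.03 without untreated replicate 1. The list's levels, relative to all members, were -0.71, -1.04 and -0.95 at 6 h and -1.18, -1.06 and -0.80 in untreated cells; untreated replicate 1 was the lowest, and the groups overlapped. RPLP0, a protein of the ribosomal stalk whose tract is shown above, had 356, 229 and 248 Ribo CPM at 6 h and 220, 243 and 234 in untreated cells, and an efficiency change of 0.10 (-0.72 to 0.92). The 42 ribosomal protein members with a tract had a median of 0.10. Ribosomal protein genes have many processed pseudogenes, so their counts are uncertain where reads were shared.

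The 20 TOP translation factors had a median efficiency change of 0.00, with 10 higher and 10 lower, and a relative change of 0.12 that was 0.24 without untreated replicate 1. The 30 other initiation factors had -0.04, with 14 higher and 16 lower, and a relative change of 0.08. Their medians were 0.29 in RNA and 0.25 in footprints. RNA rose for 4 of them, and footprints rose for 3 and fell for 1. EIF4B, an initiation factor that assists unwinding, had 50.1, 49.3 and 57.0 Ribo CPM at 6 h and 174, 39.2 and 46.8 in untreated cells. Its estimate of -0.80 (-2.04 to 0.45) was -0.09 without untreated replicate 1, whose footprints were high. EIF4EBP2, an inhibitor of cap-dependent initiation, had 80.0, 81.9 and 71.5 Ribo CPM at 6 h and 264, 174 and 186 in untreated cells, with no overlap. Its footprints fell by 1.42 (adjusted p = 0.00514), its RNA change was -0.86 (adjusted p = 0.0954), and its efficiency change was -0.56 (-1.32 to 0.20), or -0.31 without untreated replicate 1.

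The proteasome and the cytosolic heat shock chaperones lay on the other side of the median of the members from the ER lists. The 29 proteasome members had medians of 0.35 in RNA, 0.44 in footprints and 0.08 in efficiency, with none called. Their relative change of 0.19 was 0.11 without untreated replicate 1 and 0.08 without replicate 1 of all groups. The 16 members of the regulatory particle had a median of 0.13, with 14 higher, and the 13 core members -0.07, with 5 higher. The 27 heat shock chaperones had a median of 0.07, with 20 higher, and a relative change of 0.19, or 0.26 without untreated replicate 1. Their levels were -0.56, -0.55 and -0.32 at 6 h and -0.49, -0.78 and -0.59 in untreated cells, which overlapped. HSPA8, the constitutive HSP70, had 147, 115 and 144 Ribo CPM at 6 h and 384, 373 and 400 in untreated cells. Its RNA was 374, 382 and 365 CPM at 6 h and 1333, 1684 and 1272 in untreated cells. HSPA8 fell in both assays, by 1.51 in footprints and by 1.94 in RNA, with an efficiency change of 0.43 (-0.35 to 1.20).

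**Figure D5:**
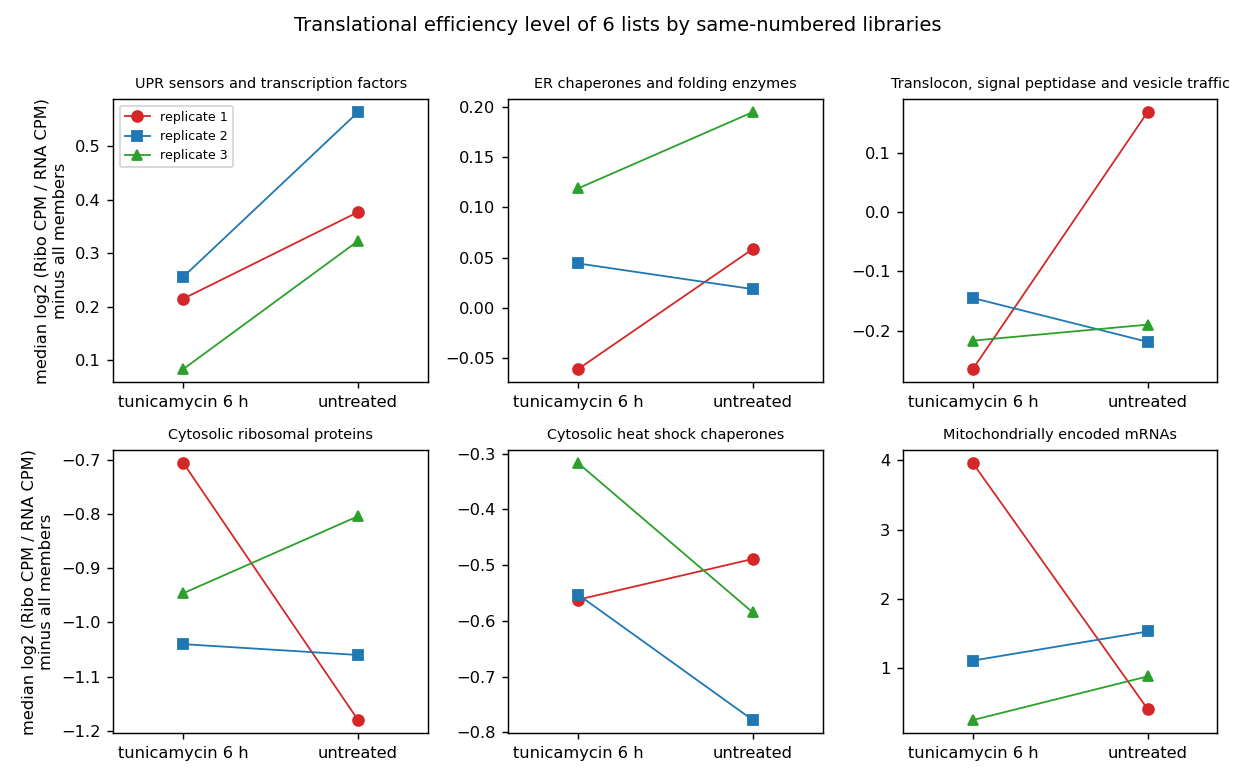
Median efficiency level of 6 gene lists relative to all members (y axis, log2 of Ribo CPM over RNA CPM) in same-numbered libraries of tunicamycin 6 h, left, and untreated cells, right, with a line for each replicate number. The UPR list is lower at 6 h in all 3 numbers, and the other lists have numbers that go in opposite directions.

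Mitochondrially encoded mRNAs, 13 members translated by the ribosomes of the mitochondrion, all had positive estimates, with a median of 0.32 and a relative change of 0.43. That direction rested on replicate 1: the relative change was -0.30 without replicate 1 of all groups. Relative to all members, the list's efficiency levels were 3.96, 1.11 and 0.25 at 6 h and 0.41, 1.53 and 0.88 in untreated cells. Its RNA level was 1.39, 4.25 and 4.03 at 6 h and 2.80, 3.90 and 4.09 in untreated cells (median log2 level relative to all members), so the RNA of replicate 1 was low in both groups. MT-ND5, a subunit of complex I, had 309, 1920 and 1910 RNA CPM at 6 h and 728, 1364 and 1761 in untreated cells. Its efficiency change was 0.57 (-1.65 to 2.80). The protocol takes 80S monosomes, and the counts cannot show which ribosomes gave these fragments. Nuclear-encoded respiratory chain genes (71 members) and mitochondrial ribosomal proteins (72 members) had medians of -0.03 each.

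Several lists had lower footprints, with median efficiency changes from -0.24 to -0.12. Cholesterol and fatty acid synthesis, 32 members, had medians of -0.31 in RNA, -0.47 in footprints and -0.17 in efficiency. For this list 27 estimates were lower and 20 were below the median of all members. Its relative change of -0.06 was 0.02 without untreated replicate 1. Immediate early genes, 29 members, had medians of -0.02 in RNA, -0.31 in footprints and -0.16 in efficiency, a relative change of -0.04. Of their estimates 24 were lower and 21 were below the median of all members. The 39 members for extracellular matrix and integrins, many of them N-glycosylated, had -0.09 in RNA, -0.25 in footprints and -0.12 in efficiency, a relative change of -0.01. The 10 substrates of IRE1-dependent decay had -0.28, -0.47 and -0.24, a relative change of -0.12. Of the 10 estimates 9 were below 0, and 6 were below the median of all members. The efficiency level of this list, relative to all members, was 0.165, 0.161 and 0.284 in replicates 1 to 3 at 6 h. In untreated cells it was 0.331, 0.482 and 0.343, so the groups did not overlap. The relative change was -0.16 without untreated replicate 1 and -0.03 without replicate 1 of all groups. DGAT2, an enzyme of triglyceride synthesis on that list, had 6.23, 3.44 and 6.07 Ribo CPM at 6 h and 58.7, 47.7 and 50.5 in untreated cells. Its RNA was 3.07, 3.33 and 3.01 CPM at 6 h and 21.9, 17.8 and 19.1 in untreated cells. Both assays were without overlap, and DGAT2 fell by 3.32 in footprints and by 2.64 in RNA, with an efficiency change of -0.68 (-1.48 to 0.13).

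Cell cycle and DNA replication (36 members) had a median efficiency change of 0.01, with 18 higher and 18 lower and a relative change of 0.13. The p53 targets (14 members) had -0.07, a relative change of 0.05. Replication-dependent histones, 15 members, had 0.09, with 11 higher and a relative change of 0.21 that was -0.02 without untreated replicate 1. H2BC12, an H2B gene, had 354, 193 and 200 Ribo CPM at 6 h and 53.4, 158 and 150 in untreated cells, with replicate 1 lowest in untreated cells and highest at 6 h. The 8 glial markers among the members had -0.06, and VIM, an intermediate filament protein of glia, had an efficiency change of 0.13 (-0.88 to 1.14). The epithelial keratins KRT8 and KRT18 had 0.23 and 0.29, a relative median of 0.38. Zinc finger genes named ZNF and a number, 302 members, had -0.17, with 89 higher and 213 lower. They had a relative change of -0.05, with 172 below the median of all members. In 4 equal groups of RNA level, low to high, the median efficiency changes were -0.05, -0.11, -0.14 and -0.15; without untreated replicate 1 the relative changes of these groups were 0.01, -0.01, -0.01 and 0.01.

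Members lower in efficiency come next, by smallest unadjusted p, and none of them passed the adjusted test. UQCC6, an assembly factor of respiratory complex III, had 6.37, 5.29 and 6.52 Ribo CPM at 6 h and 6.42, 8.98 and 5.84 in untreated cells. Its RNA was 22.1, 20.0 and 21 CPM at 6 h and 10.6, 9.13 and 9.25 in untreated cells. RNA rose by 1.12 (adjusted p = 0.0403) with no overlap, footprints overlapped, and the efficiency change was -1.34 (-2.19 to -0.49, adjusted p = 0.991, edgeR). DESeq2 gave UQCC6 an adjusted p of 0.0941. PCGF3, a polycomb-group ring protein, had 34.7, 33.6 and 45.1 Ribo CPM at 6 h and 45.1, 65.2 and 50.2 in untreated cells, and an efficiency change of -0.85 (-1.46 to -0.23). Others of the 12 were lower through footprints: PDE7A, a phosphodiesterase, AK4, a mitochondrial adenylate kinase, IL10RB, a cytokine receptor chain, and GABRQ, a GABA receptor subunit, had called footprint falls of 1.28 to 1.81 with RNA changes between -0.60 and -0.39. Their efficiency changes were -1.0, -0.90, -0.89 and -1.36, and that of AK4 was -0.58 without untreated replicate 1.

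The other 6 of the 12 lower members were ZNF417 at -1.68, LSAMP at -1.66, ST3GAL6 at -1.42, SMIM7 at -0.90 (-0.56 without untreated replicate 1), and MAP1LC3B and EDEM1 with the values above. LSAMP, a neuronal adhesion molecule, had 13.0, 20.8 and 32.1 Ribo CPM at 6 h and 82.7, 24.9 and 39.6 in untreated cells. ST3GAL6, a sialyltransferase, had 5.67, 5.78 and 8.21 Ribo CPM at 6 h and 19.9, 7.83 and 12.9 in untreated cells. In both genes untreated replicate 1 had the highest footprints of the 6 libraries, and without it the efficiency changes were -1.21 for LSAMP and -0.71 for ST3GAL6.

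Among members higher in efficiency, single libraries decided several values. GLIS3, a zinc finger transcription factor, had 93.6, 207 and 74040 Ribo CPM at 6 h and 65.1, 167 and 173 in untreated cells. Its RNA was 69.7, 178 and 194 CPM at 6 h and 42.3, 146 and 183 in untreated cells. Replicate 3 alone was high, with 658288 counts or 6.50% of that Ribo-Seq library, and the efficiency estimate of 7.27 was -0.09 without it. CXXC5, a CXXC zinc finger protein, had 37.4, 55.7 and 447 Ribo CPM at 6 h and 160, 151 and 148 in untreated cells. PLXNC1, a semaphorin receptor, had 4.53, 4.92 and 25.5 Ribo CPM at 6 h and 4.03, 2.53 and 2.38 in untreated cells. Without that library, efficiency estimates were -0.04 for CXXC5, against 1.90 with it, and 0.74 for PLXNC1, against 2.03. EBF1, a transcription factor, had 138, 25.3 and 96.4 Ribo CPM at 6 h and 24.9, 15.3 and 28.4 in untreated cells, with an estimate of 1.72.

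Other members of that group of 12 had libraries that lay closer together. IL1A, the cytokine interleukin 1 alpha, had 12.8, 9.71 and 15.6 Ribo CPM at 6 h and 0.312, 1.27 and 1.95 in untreated cells. Its RNA was 17.0, 15.2 and 17.3 CPM at 6 h and 2.26, 4.75 and 5.79 in untreated cells. IL1A footprints rose by 3.53 (adjusted p = 0.00622), its RNA change of 1.95 had an adjusted p of 0.102, and its efficiency change was 1.58 (-0.22 to 3.37). GAD1, which makes GABA, had 19.6, 12.5 and 14.7 Ribo CPM at 6 h and 17.4, 11.5 and 13.4 in untreated cells. Its RNA was 13.9, 14 and 11.3 CPM at 6 h and 36.9, 20.4 and 18.4 in untreated cells, each treated library below every untreated one, and its efficiency change was 1.09 (0.23 to 1.95). LARS2, the mitochondrial leucine tRNA synthetase, had 39.2, 38.4 and 35.4 Ribo CPM at 6 h and 24.3, 29.8 and 28.1 in untreated cells, with an efficiency change of 0.54 (-0.06 to 1.13). BDH1, NOSIP, INO80C and RNF166 had changes of 1.11, 0.67, 1.04 and 0.69.

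Members with estimates past 2 or below -1.8, named after their values were seen, each had 1 library far from the others. Besides GLIS3 and PLXNC1, TPRN had 16.7, 34.4 and 864 Ribo CPM at 6 h and 16.4, 46.8 and 187 in untreated cells. TCF7L1, a transcription factor of the Wnt pathway, had 4.82, 275 and 12.0 Ribo CPM at 6 h and 35.6, 62.2 and 29.6 in untreated cells. HAPLN1, a matrix link protein with an estimate of 2.49, was high only in untreated replicate 1, at 31.4 Ribo CPM and 39.5 RNA CPM, against at most 1.46 and 0.312 elsewhere. MYCN, a transcription factor with the lowest estimate of -1.83, likewise had 217 Ribo CPM and 148 RNA CPM in untreated replicate 1, against at most 3.24 and 3.45 in the other libraries of the comparison. Both reached the level of the rule only through that library. The rule takes a mean over both groups, and some other named members were under 5 Ribo CPM in 1 group. Mean Ribo CPM at 6 h and in untreated cells was 9.13 and 0.905 for DERL3 and 12.7 and 1.175 for IL1A. It was 2.67 and 9.45 for GABRQ and 3.18 and 7.03 for ZNF417. PLXNC1 was under 5 Ribo CPM in all compared libraries but replicate 3 at 6 h. The estimates of such genes depend on the libraries that met the rule.

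Tunicamycin at 2 h and thapsigargin, an inhibitor of the ER calcium pump at 200 nM, were set against the same untreated libraries, so their values are not independent and thapsigargin has 1 library per time and assay. HERPUD1 had efficiency changes of -1.35 at 2 h and -0.34 at 6 h of tunicamycin, and -0.52 at 2 h and -0.42 at 6 h of thapsigargin. DNAJB9 had -1.59 and -0.69 with tunicamycin and -1.15 and -1.78 with thapsigargin. ATF4 had -0.35 and -0.15, and -0.07 and -0.17. UQCC6 had -1.47 and -1.34, and -1.16 and -3.18. PNRC2 had -0.55 and -0.57, and -1.07 and -1.89. All of these genes had negative values throughout, and some other named genes changed sign. HSPA5 had -0.37 and -0.25 with tunicamycin and 0.09 and 0.20 with thapsigargin. TRIB3 had -0.27 and -0.20, and 0.20 and 0.59. ATF5 had -0.02 and -0.13, and 0.82 and 0.95. DERL3 had 0.64 and 1.48, and -1.54 and 1.86.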

How the data were processed

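RNA-Seq and Ribo-Seq counts, whole reads per gene in each library, were used as deposited by the authors, for 58278 gene entries. STAR 2.5.4b, HTSeq, DESeq2 and build GRCh38 are named without roles, per the submitters' processing notes; the strand setting is not given in the sources used here, so reads of overlapping and antisense genes cannot be told apart. Per the labels' protocols, Ribo-Seq cells received cycloheximide (0.1 mg/ml, 5 min) before lysis, and libraries were made from 80S monosome fragments between 27 and 33 nt long.

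From these counts, genes were kept by edgeR's filterByExpr (minimum count 10) in each assay, 18500 in both, and scaled within each assay by TMM (trimmed mean of M-values). A joint model of 22 libraries in 10 groups was fitted with glmQLFit (robust, edgeR 4.0.16, R 4.3.3), and efficiency was tested as the interaction of assay and treatment with glmQLFTest, Benjamini-Hochberg adjusted over 18500 genes and called under 0.05. Effects are log2 values with standard errors or 95% intervals from the fit. Efficiency levels per library pair used log2(CPM + 0.5). The biological coefficient of variation was 0.427. Fits were tested on simulated counts with the spread estimated from these libraries. The test called 2.99% of simulated 2-fold efficiency changes, 41.8% of 4-fold and 92.4% of 8-fold ones, so most 2-fold changes were missed there. Simulated libraries were drawn independently, without the variation that same-numbered libraries share here. The shares may therefore differ for these data and for the blocked fits.

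Symbols were matched for 57437 entries and biotypes for 40086 (RefSeq). The 29 gene lists hold 899 entries, of which 897 were matched (H2AC18 and H3C2 were not) and 804 genes are members. Members and lists were chosen with earlier results of these data known, so lists have counts and medians and no test. Named genes were the 12 smallest unadjusted p in each direction, the 2 smallest of each list and 20 sentinel genes; exceptions are named as such.

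Replicate numbers came from the labels. Same-numbered libraries deviated together from their group means (correlations 0.368 to 0.552 in RNA-Seq, 0.171 to 0.363 in Ribo-Seq, and between the assays 0.488 to 0.852). Number 2 correlated as highly with another number in 2 comparisons (0.374 against 0.368 in RNA-Seq, 0.567 against 0.55 between the assays at 6 h). Between the assays in untreated cells, numbers 2 and 3 also correlated with another number, at 0.636 against 0.745 and 0.669 against 0.77. Pairing is thus less clear for numbers 2 and 3. Fits with a replicate block were run as alternatives. Other alternatives were scaling, filters, DESeq2 1.42.0, limma 3.58.1 (voom), the CPM level, the pseudocount, and leaving out libraries.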

Additional observations from a re-analysis of the deposited data

How the results depend on the processing

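No setting called a member in efficiency. With the replicate block within each assay, shared by the assays, or both in 1 fit, 0 members were called. At an unadjusted p under 0.05 there were 141, 241 and 440 against 69, and the smallest adjusted p was 0.318 (both blocks, edgeR). Those blocked fits held 14613 genes and no thapsigargin libraries, so more than the block differed. DESeq2 called 13 higher and 6 lower among all tested genes and no member. Relative list medians that moved by more than their spread over replicate numbers were -0.0779 for the UPR list and -0.111 for cholesterol with limma voom; -0.171 for PERK-ATF4 targets and 0.0165 for cholesterol without untreated replicate 1, and -0.154 and 0.0163 with the shared replicate block as well; -0.0960 for cholesterol at members of at least 1 CPM; and 0.0355 for decay substrates at 20 CPM. Leaving out 1 library or 1 replicate number gave ranges of -0.162 to -0.0053 (ER chaperones), -0.208 to 0.0473 (degradation), -0.285 to -0.0857 (UPR), -0.288 to 0.0608 (PERK-ATF4 targets), -0.219 to 0.086 (amino acid genes), -0.264 to 0.0215 (uORF), -0.0237 to 0.339 (TOP factors), -0.0372 to 0.120 (other initiation factors), -0.180 to 0.123 (cholesterol), -0.0883 to 0.356 (cell cycle), -0.469 to 0.172 (immediate early genes), -0.330 to 0.0327 (decay substrates), -0.0947 to 0.0596 (autophagy), -0.246 to 0.382 (glial markers) and -0.148 to 0.0138 (zinc finger genes); the causes were not tested. Relative medians kept their sign in all 32 alternatives for ER chaperones, N-glycosylation, the UPR list, the proteasome and heat shock chaperones. Of 93 named genes, 62 kept their sign in all 30 alternatives run on them. The blocked fits, the fits without untreated replicate 1 in both assays and joint scaling of the assays were added after the data were seen, apart from the block within each assay. Planned classes by protein length, ER targeting and glycosylation sites were not run, since no protein sequences were used here.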
